A study of Mus musculus with 9 samples.

Results

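The comparison concerned long-term hematopoietic stem cells (LT-HSCs) that had lost all class IA catalytic subunits of phosphatidylinositol 3-kinase (PI3K), called TKO, set against wild-type (WT) LT-HSCs. The members were the 3 TKO and 3 WT RNA-seq libraries, 6 of the 9 libraries of the series, chosen by the genotype in their labels. The remaining 3 libraries, from cells that lacked Pik3cd alone, were not compared. TKO cells carried floxed Pik3ca and Pik3cb alleles, a germline deletion of Pik3cd (Pik3cd-/-) and the Mx1-Cre transgene, and WT cells carried Mx1-Cre without floxed alleles. Donor C57BL/6 bone marrow of either genotype had been placed in lethally irradiated B6.SJL recipients, and both groups had received 2 injections of 250 μg polyinosinic:polycytidylic acid (pIpC), 48 hours apart, to switch on Cre. Bone marrow was taken 4 weeks later, and donor-derived Lin-cKit+Sca1+Flk2-CD48-CD150+ cells were sorted.

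Several features of the model limit the comparison. Mx1-Cre is switched on by interferon and is active in blood cells and in other tissues, so deletion was induced in adult cells for Pik3ca and Pik3cb, whereas Pik3cd was absent throughout development. By the study's methods the marrow of the 7 recipients of a group was pooled. However, the female-specific transcript Xist stood at 33.9, 5664 and 48.2 CPM (read counts scaled by library size) in WT replicates 1 to 3. In TKO replicates 1 to 3 it stood at 4414, 3441 and 38.9 CPM. The libraries of a genotype therefore did not behave as aliquots of a single mixed pool, and p-values measure only the spread between these libraries. Libraries high in Xist were not balanced between the genotypes, and the fit held no term for sex, also for X-linked genes such as Gla, G6pdx and Pim2. Each library held between 37544783 and 60386097 counts, with 19703 to 22703 genes detected. TKO replicate 2 stood apart, since its log2 CPM values correlated with those of TKO replicates 1 and 3 at Pearson's r of 0.848 and 0.874 across genes, against 0.904 between the latter. In bulk samples of this kind, fewer cells of a type and less RNA per cell cannot be told apart.

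Class IA PI3Ks pair a p110 catalytic subunit (p110α, p110β or p110δ) with a regulatory subunit, are recruited to cytokine and growth factor receptors, and make the lipid PIP3. PIP3 brings the kinase AKT to the membrane, and AKT in turn activates mTOR complex 1 and keeps FoxO transcription factors out of the nucleus. In LT-HSCs, which rarely divide and sustain all blood lineages, this pathway is known for its part in quiescence, growth, autophagy and the response to cytokines.

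The targeted genes were examined first. Pik3cb, which encodes p110β (mm10 chr9:99036654-99140621, minus strand), was measured at 67.2, 47.3 and 63.8 CPM in WT replicates 1 to 3 and at 35.5, 27.1 and 36.2 CPM in the TKO replicates. Pik3cd, which encodes p110δ (chr4:149649168-149702571, minus strand), stood at 146, 104 and 118 CPM in WT and at 75.5, 78.0 and 78.4 CPM in TKO. Every TKO library lay below every WT library for both genes. The log2 fold changes of TKO over WT were -0.85 ± 0.25 (SE) and -0.67 ± 0.20 (SE), with Benjamini-Hochberg adjusted p of 0.320 and 0.324 in edgeR's quasi-likelihood test. Pik3ca, which encodes p110α (chr3:32397671-32468486, plus strand), stood at 68.7, 64.3 and 48.3 CPM in WT and at 72.1, 56.3 and 63.8 CPM in TKO, and its groups overlapped. The counts are summed over whole genes, so that transcripts lacking deleted exons are still counted, and these values do not measure how complete the deletion was.

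A gene was called when its adjusted p was under 0.05 and its change more than 2-fold. Of 17548 genes tested, 8 (0.0456%) were called higher in TKO than in WT and 1 (0.0057%) was called lower. Without the adjustment, at p under 0.05, 813 genes (4.63%) were higher and 782 (4.46%) lower. The 3 TKO libraries lay above all WT libraries in 1272 genes (7.25%) and below all of them in 1270 genes (7.24%). DESeq2, the tool named in the study's methods, called 244 (1.39%) of the same genes higher and 276 (1.57%) lower at the same thresholds, all 9 genes called by edgeR among them. The median log2 fold change over all tested genes was 0.03, with an interquartile range from -0.39 to 0.44.

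Zfp990, a member of the large family of zinc-finger proteins on distal chromosome 4 (chr4:145510759-145539188, plus strand), rose most among the called genes. It stood at 0.568, 0.382 and 0.707 CPM in WT and at 46.5, 41.7 and 53.2 CPM in TKO (log2 fold change 6.42 ± 0.40 SE, adjusted p = 0.000379). Enah, an actin regulator of the Ena/VASP family, rose from 5.22, 7.06 and 13.1 CPM to 71.9, 83.1 and 60.9 CPM (3.09 ± 0.37 SE, adjusted p = 0.0295). All TKO libraries were several times above the highest WT library for both genes.

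Mtmr9, a catalytically inactive member of the myotubularin phosphoinositide phosphatase family, stood at 16.4, 17.6 and 12 CPM in WT and at 113, 62.4 and 131 CPM in TKO (2.73 ± 0.32 SE, adjusted p = 0.0295). Gimap6, a GTPase of the immunity-associated family, stood at 35.1, 44.3 and 39.8 CPM in WT and at 138, 136 and 114 CPM in TKO (1.71 ± 0.20 SE, adjusted p = 0.0295). Both rose in every TKO library, with the groups well apart. Epb41l4b, which encodes a FERM-domain protein, stood at 44.2, 57.0 and 60.8 CPM in WT and at 229, 188 and 175 CPM in TKO (1.87 ± 0.21 SE, adjusted p = 0.0295).

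Slc7a8, a transporter of large neutral amino acids, stood at 12.6, 12.9 and 19.5 CPM in WT and at 61.6, 65.5 and 76.7 CPM in TKO (2.18 ± 0.28 SE, adjusted p = 0.0348). The neural cell adhesion gene Ncam2 stood at 2.73, 2.96 and 1.14 CPM in WT and at 29.2, 47.3 and 22.2 CPM in TKO (3.85 ± 0.51 SE, adjusted p = 0.0379). Stxbp6, a syntaxin-binding protein gene, stood at 2.08, 3.80 and 2.37 CPM in WT and at 24.0, 30.9 and 23.7 CPM in TKO (3.25 ± 0.42 SE, adjusted p = 0.0379). Neither Slc7a8, Ncam2 nor Stxbp6 overlapped between genotypes.

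Siglece was the single gene that fell. It encodes a sialic acid-binding inhibitory receptor of neutrophils and monocytes, and stood at 25.6, 19.9 and 37.6 CPM in WT and at 0.122, 0.868 and 0.475 CPM in TKO (-5.85 ± 0.72 SE, adjusted p = 0.0295). Leaving out 1 library at a time left between 1 and 8 genes called higher and between 0 and 16 called lower. Zfp990 was the only gene called in every such fit: the count of higher genes was 1 without WT replicate 1, WT replicate 2, TKO replicate 1 or TKO replicate 3, 2 without WT replicate 3 and 8 without TKO replicate 2, where 16 genes were called lower.

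**Figure D1:**
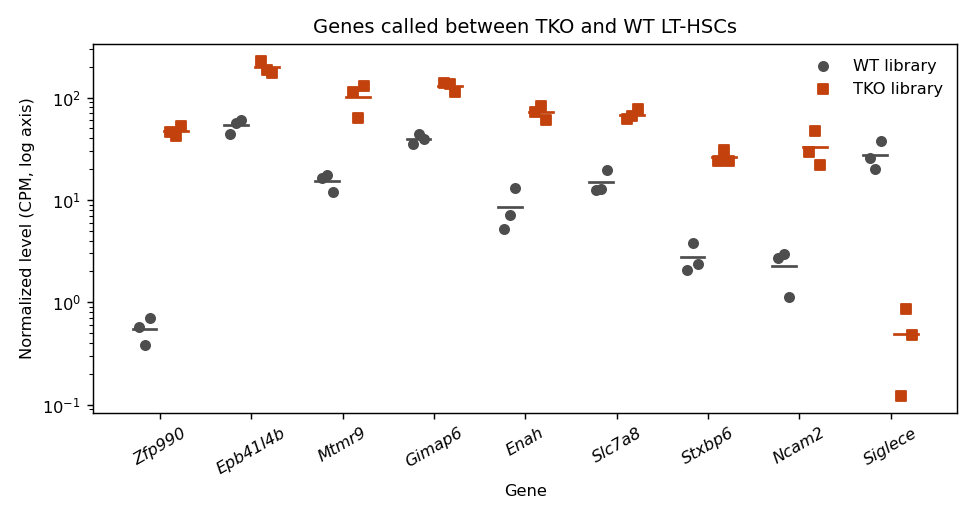
Normalized level in CPM (log axis) of the 9 called genes in each WT library (circles) and TKO library (squares), with horizontal lines at the group means. The groups do not overlap for any of the 9 genes, and Zfp990 and Siglece sit near or below 1 CPM in the group where they are low.

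The genes ranked next by p, among those chosen for having no overlap between genotypes, did not pass the adjustment. Among those higher in TKO were Serpina3g, a serine protease inhibitor gene (log2 fold change 1.75, adjusted p = 0.0688), Podxl, a sialomucin of HSCs and endothelium (2.46, adjusted p = 0.0688), and Bcat1, which encodes the cytosolic branched-chain aminotransferase (4.59, adjusted p = 0.0769). Bcat1 overlaps the antisense gene Gm26666, and whether reads were counted by strand was not given in the sources used here. Fgd5, a gene used to mark HSCs, stood at 22.0, 25.7 and 21.9 CPM in WT and at 88.7, 66.3 and 59.1 CPM in TKO (1.62 ± 0.25 SE, adjusted p = 0.0929).

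On the lower side the next genes were Tent5a, a poly(A) polymerase gene (-2.35, adjusted p = 0.0856), Ckap4, a membrane protein of the endoplasmic reticulum (-1.83, adjusted p = 0.102), Stom, which encodes the membrane protein stomatin (-2.32, adjusted p = 0.102), and AB124611 (-3.26, adjusted p = 0.102). After them came Rps6ka2, Ptgr1, 4930438A08Rik, Ncf4, Megf9, Clec5a and Nhsl2, with adjusted p between 0.118 and 0.164. Ncf4 encodes p40phox of the phagocyte oxidase and Clec5a a receptor of myeloid cells.

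**Figure D2:**
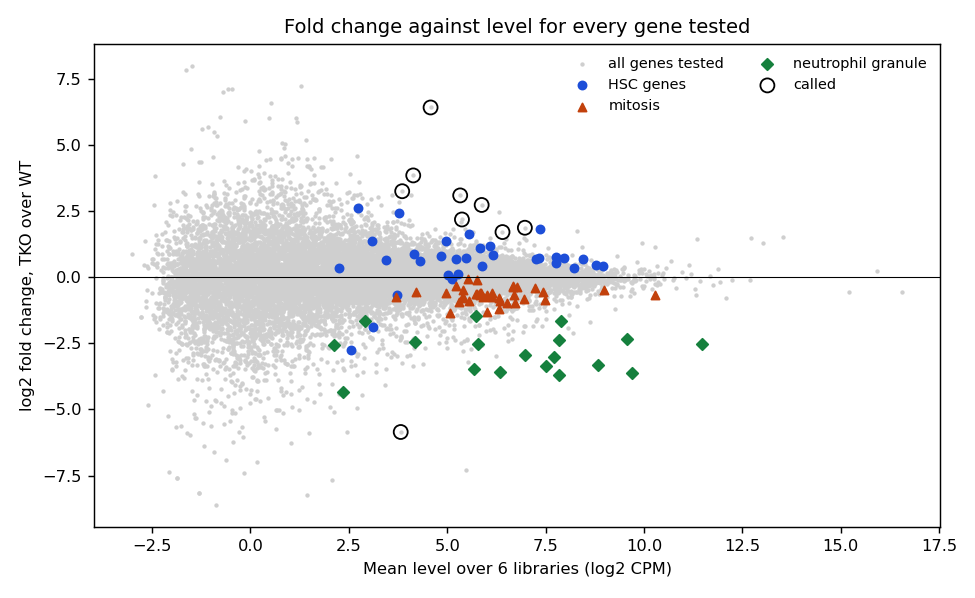
Log2 fold change of TKO over WT (vertical axis) against the mean level over the 6 libraries in log2 CPM (horizontal axis) for 17548 genes. Grey points are all genes tested, coloured points are members of the HSC, mitosis and neutrophil granule lists, and open circles mark the 9 called genes; mitosis genes form a band below 0 and neutrophil granule genes lie lower still.

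Gene programs were then described through 38 lists, each by its counts and its median fold change beside those of all genes tested. No member of any list passed the edgeR call, so a member counted as higher or lower is one whose unadjusted p in edgeR was under 0.05. For named members the adjusted p over all genes is given. Beside each list count, the shares of all genes were 4.63% higher and 4.46% lower in edgeR and 1.39% and 1.57% in DESeq2. The HSC list, with genes enriched in LT-HSCs over progenitors, had a median log2 fold change of 0.70, against 0.03 for all genes. Of its 32 members, 28 had fold changes above 0 and 4 below. At an unadjusted p under 0.05, 16 were higher and 2 lower, against 4.63% and 4.46% of all genes. Without overlap 15 lay above WT and 2 below, against 7.25% and 7.24%, and DESeq2 called 5 higher and 1 lower, against 1.39% and 1.57%.

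The HSC list included surface proteins, transcription factors and signalling genes. Ifitm1, an interferon-inducible membrane protein gene, stood at 49.7, 70.8 and 98.4 CPM in WT and at 205, 362 and 201 CPM in TKO (log2 fold change 1.81, adjusted p = 0.139). Tie1, a receptor of the angiopoietin system, stood at 26.9, 41.4 and 39.1 CPM in WT and at 85.0, 62.6 and 85.8 CPM in TKO (1.12, adjusted p = 0.227). Angpt1, a ligand of that system, stood at 124, 199 and 239 CPM in WT and at 336, 302 and 299 CPM in TKO (0.74, adjusted p = 0.371). For these genes each TKO library exceeded each WT library, and WT replicate 1 was the lowest of all. Gprasp2, a gene of receptor sorting, differed by 2.41 (adjusted p = 0.233).

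Among transcription factors, Meis1, a homeobox partner of HOX proteins, stood at 193, 304 and 304 CPM in WT and at 477, 361 and 468 CPM in TKO (0.71, adjusted p = 0.362). Mecom, which encodes the zinc-finger factor EVI1, stood at 100.2, 126 and 125 CPM in WT and at 198, 132 and 237 CPM in TKO (0.69, adjusted p = 0.394). Hlf, a bZIP factor of HSCs, had the smaller difference of 0.42 (adjusted p = 0.550). Against the direction of the list, the netrin receptor gene Neo1 stood at 8.25, 18.4 and 3.84 CPM in WT and at 1.74, 0.62 and 2.17 CPM in TKO (-2.75, adjusted p = 0.303), and Clec1a was also lower (-1.86, adjusted p = 0.470). Without WT replicate 1, in which the list was lowest, the median was 0.52, with 8 members higher and 3 lower, and with all 9 libraries in the edgeR fit 6 were higher and 1 lower. In a separate list of 21 stem cell transcription factors, 4 were higher and 2 lower, with a median of 0.18, but 2 were higher with DESeq2 size factors in edgeR and 1 higher and 1 lower without TKO replicate 3. Without TKO replicate 2 there were 6 higher and 5 lower, and over all fits that left out 1 library 1 to 6 were higher and 1 to 5 lower. The largest difference there was in Cebpa, the factor that commits progenitors to granulocytes and monocytes, at 52.3, 25.8 and 14.0 CPM in WT and 1.99, 9.24 and 3.07 CPM in TKO (-2.69, adjusted p = 0.251).

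RNA of the surface proteins used in the sort was compared as well. Kit stood between 497 and 529.8 CPM in WT and between 556 and 735 CPM in TKO. Slamf1, which encodes CD150, stood at 26.7, 50.1 and 47.7 CPM in WT and at 169, 54.4 and 58.9 CPM in TKO (1.18, adjusted p = 0.440). Cd48, whose protein was gated out, stood at 19.3, 24.6 and 23 CPM in WT and at 14.8, 13.4 and 10.3 CPM in TKO (-0.80, adjusted p = 0.508). Flt3, which encodes the Flk2 protein that was also gated out, was at 121 CPM in WT replicate 1 and between 13.1 and 42.1 CPM in the other libraries.

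Genes of mitosis had lower levels in TKO LT-HSCs. All 37 members of the mitosis list had a log2 fold change below 0, with a median of -0.66, and 24 were lower at an unadjusted p under 0.05, against 4.46% of all genes. In 23 of the 37 each TKO library lay below each WT library, against 7.24% of all genes. DESeq2 called 3 lower, against 1.57% of all genes: the chromosomal passenger kinase Aurkb, the mitotic entry kinase Plk1 and the centrosomal kinase Aurka. None was called in edgeR, where the smallest adjusted p in the list was 0.187.

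Plk1 stood at 129, 77.0 and 72.4 CPM in WT and at 38.9, 34.3 and 37.2 CPM in TKO (log2 fold change -1.33 ± 0.27 SE, adjusted p = 0.187). Aurkb stood at 131, 102 and 99.1 CPM in WT and at 40.3, 46.7 and 59.4 CPM in TKO (-1.18 ± 0.23 SE, adjusted p = 0.187). Aurka stood at 63.5, 50.3 and 31.5 CPM in WT and at 16.4, 24.6 and 15.7 CPM in TKO (-1.36 ± 0.34 SE, adjusted p = 0.251). The WT value of each was highest in WT replicate 1, and the lowest WT library still exceeded the highest TKO library. Mki67, the gene of the Ki-67 antigen of cycling cells, stood at 1737, 1461 and 1336 CPM in WT and at 998, 935 and 947 CPM in TKO (-0.65, adjusted p = 0.297). Cdk1 and its partner cyclin gene Ccnb2 differed by -0.73 (adjusted p = 0.419) and -0.97 (adjusted p = 0.299), and Top2a by -0.48 (adjusted p = 0.513).

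Genes of the preceding phases of the cycle differed less. The list of G1/S and DNA replication genes had a median of -0.06, with 22 of 35 members below 0, 4 lower and 1 higher at an unadjusted p under 0.05. Leaving out 1 library gave 2 to 5 lower, the lowest count without WT replicate 1, 2 or 3 or TKO replicate 3. Cdc45, a subunit of the replicative helicase, and Rrm2, a subunit of ribonucleotide reductase, each had a log2 fold change of -1.02 (adjusted p = 0.342 and 0.364). Of 10 inhibitors of cyclin-dependent kinases and D-type cyclins with their partners, 1 was higher and 2 lower. Cdk6, the kinase that drives exit of HSCs from quiescence, stood at 3888, 2968 and 2563 CPM in WT and at 1786, 1768 and 2408 CPM in TKO (-0.66, adjusted p = 0.390). The inhibitor gene Cdkn2c was lower as well (-1.73, adjusted p = 0.326), whereas Cdkn1c was above 4 CPM in TKO replicate 2 alone, at 28.4 CPM.

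**Figure D3:**
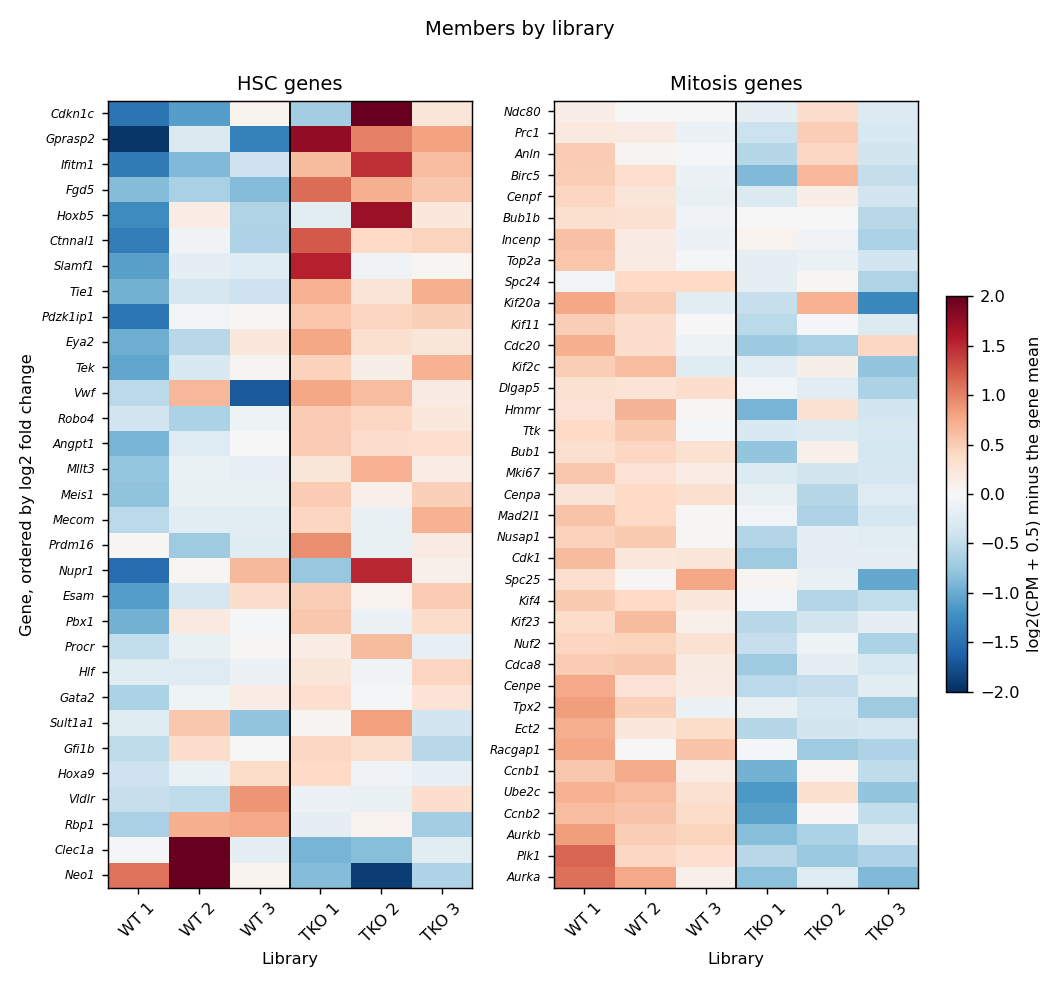
Members of the HSC list (left, without 1 member) and the mitosis list (right), 1 row per gene ordered by fold change and 1 column per library, coloured by log2(CPM + 0.5) minus the mean of the gene over the 6 libraries. The 3 WT columns are mostly blue for HSC genes and mostly red for mitosis genes, and the TKO columns are the reverse, with TKO replicate 2 paler than the others for several mitosis genes.

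Promoters of the mitosis list were inspected because genes of this phase are known to share the cell cycle homology region (CHR) and CCAAT boxes. RefSeq promoter windows (GRCm38.p6, equivalent to mm10), from 250 bases before to 50 bases after the transcription start, were given for 31 of the 37 members. The CHR, TTTGAA on either strand, was present in 24 of these 31 (77.4%), against 14.7% of the 11043 tested genes with a window and 13.8% of the 29 G1/S and DNA replication genes with a window. CCAAT on either strand was present in 24 of the 31 (77.4%), against 42.2% and 58.6%. These matches describe letters and not bound sites. The windows of the 2 mitosis genes with the smallest p among those with a window are printed because both place a CHR shortly after the RefSeq start and a CCAAT box before it. Motifs are in capitals, and sequences run 5′ to 3′ along the strand of the gene, Plk1 at chr7:122159185-122159484 on the plus strand and Aurka at chr2:172370521-172370820 on the minus strand.
Plk1: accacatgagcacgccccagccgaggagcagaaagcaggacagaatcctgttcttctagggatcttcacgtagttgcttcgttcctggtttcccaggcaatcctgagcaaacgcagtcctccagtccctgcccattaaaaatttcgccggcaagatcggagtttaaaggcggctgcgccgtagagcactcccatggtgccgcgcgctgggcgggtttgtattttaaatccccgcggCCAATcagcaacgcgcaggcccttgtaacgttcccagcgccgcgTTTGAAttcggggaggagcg
Aurka: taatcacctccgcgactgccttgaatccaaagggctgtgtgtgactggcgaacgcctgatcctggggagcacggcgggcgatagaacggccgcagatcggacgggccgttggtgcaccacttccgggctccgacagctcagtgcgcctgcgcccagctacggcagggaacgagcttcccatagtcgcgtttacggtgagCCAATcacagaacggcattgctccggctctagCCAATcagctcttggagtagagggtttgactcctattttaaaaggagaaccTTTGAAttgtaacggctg

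Neutrophil granule genes had lower levels in TKO, with wide spread among libraries. All 18 genes of the neutrophil granule list had log2 fold changes below 0, with a median of -2.74. At an unadjusted p under 0.05, 13 were lower, against 4.46% of all genes. Of the 18, 6 lay below WT without overlap, against 7.24% of all genes, and DESeq2 called 1 lower, Mmp9, against 1.57%. Mpo, the myeloperoxidase gene of early granulocyte precursors, stood at 9460.3, 3429 and 1789 CPM in WT and at 63.6, 2014 and 456 CPM in TKO (adjusted p = 0.467). Ngp, a gene of secondary granules, stood at 173, 385 and 4063 CPM in WT and at 43.6, 165 and 172 CPM in TKO (adjusted p = 0.307). The WT libraries differed among themselves, WT replicate 1 being highest for Mpo and Elane and WT replicate 3 for Ngp, S100a9, Ltf and Camp. Without WT replicate 3 the median was -1.44 and 5 genes were lower, and without TKO replicate 2 the median was -4.07 and 15 were lower. Without TKO replicate 3, 8 were lower, and with robust quasi-likelihood estimation 2 were.

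The monocyte and macrophage list had 2 of 15 tested members lower and a median of -1.16, and it had 8 lower without TKO replicate 2 but 1 without WT replicate 1, TKO replicate 1 or TKO replicate 3. Fcgr3, a low-affinity receptor for immunoglobulin G, stood at 55.3, 36.1 and 20.2 CPM in WT and at 1.64, 13.3 and 2.83 CPM in TKO (-2.66, adjusted p = 0.288). In the mast cell, basophil and eosinophil list 2 of 9 members were lower, with a median of -1.21. The median was -0.068 without WT replicate 2 and -3.73, with 4 lower, without TKO replicate 2. Mcpt8, a basophil protease gene, stood at 7.49, 13.1 and 4.79 CPM in WT and at 0.0811, 0.589 and 0.0904 CPM in TKO (-5.09, adjusted p = 0.192). The eosinophil genes Prg2 and Epx were high in WT replicate 2 and TKO replicate 2 (267 and 166 CPM for Prg2), and their groups overlapped. Some defining genes of mature cells had too few counts to be tested, among them Ms4a1 of B cells, Cd3e and Cd8a of T cells, C1qa of macrophages and Cdh5 of endothelium. Other members of their lists were tested: 5 of 14 for mature B, T and NK cells, 15 of 20 for monocytes and macrophages, and 10 of 15 for stroma and endothelium.

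Neutrophil granule RNA was set beside the mitosis and HSC lists, since all 3 sums separated the genotypes, as did those of several other lists. The summed level of the neutrophil granule list was 13894, 6201 and 13214 CPM in WT and 202, 3838 and 1093 CPM in TKO. That of the mitosis list was 6047, 5173 and 4444 CPM in WT and 3251, 3630.2 and 3127 CPM in TKO, and that of the HSC list 1998, 3082 and 2893 CPM in WT and 4498, 3892 and 4104 CPM in TKO. TKO replicate 2 had the highest sum of the TKO libraries for both the neutrophil granule and the mitosis list. Leaving out 1 library at a time, the median of the mitosis list ran from -0.79 to -0.62 and the number of members lower from 16, without WT replicate 1, to 31, without TKO replicate 2. The monocyte and macrophage list, at 815, 748 and 1475 CPM in WT and 262, 977 and 270.4 CPM in TKO, and the mast cell, basophil and eosinophil list, at 195, 455 and 173 CPM in WT and 5.11, 311 and 21 CPM in TKO, overlapped through TKO replicate 2. The part of myeloid RNA in the mitosis and HSC results was not tested beyond these values.

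**Figure D4:**
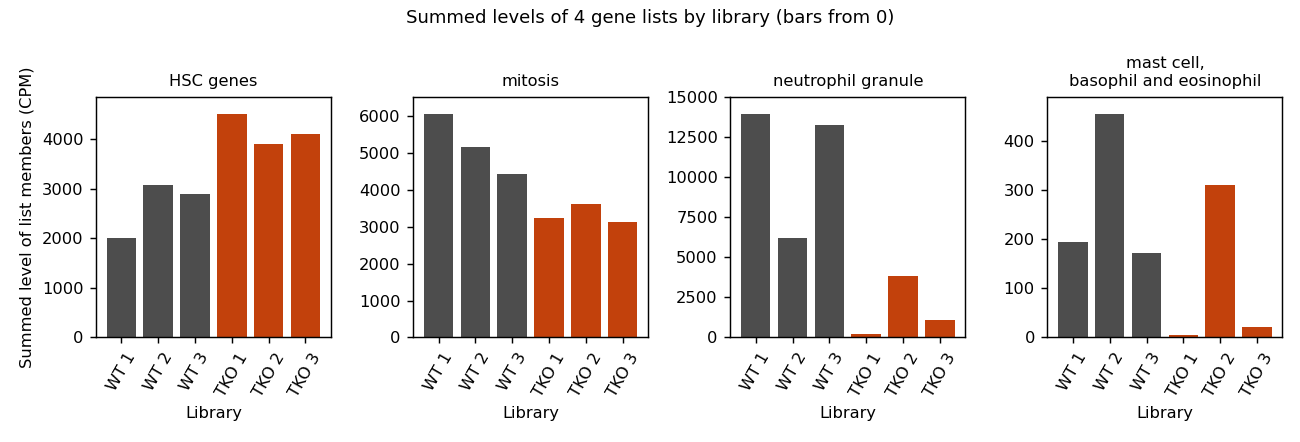
Summed level in CPM (bars from 0) of the members of 4 lists in each WT library (grey) and TKO library (orange). HSC genes are higher and mitosis genes lower in all 3 TKO libraries, whereas neutrophil granule genes range from 202 to 3838 CPM in TKO and mast cell, basophil and eosinophil genes are high in WT replicate 2 and TKO replicate 2.

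Of 19 tested genes of multipotent progenitors and lymphoid priming, 13 had log2 fold changes below 0 and 6 above, with a median of -0.80. At an unadjusted p under 0.05, 7 were lower and none higher, against 4.46% and 4.63% of all genes. Without WT replicate 1 the median was -0.29 with 4 lower, and without TKO replicate 1 it was -1.29 with 8 lower. Dntt, the terminal transferase of lymphoid progenitors, stood at 30.3, 6.14 and 2.95 CPM in WT and at 1.68, 2.08 and 0.927 CPM in TKO (-3.07, adjusted p = 0.303). Satb1, a chromatin organizer of lymphoid progenitors, stood at 87.0, 25.2 and 31.5 CPM in WT and at 7.32, 21 and 17.3 CPM in TKO (-1.66, adjusted p = 0.360). Ighm, the gene of the immunoglobulin mu heavy chain, differed by -2.70 (adjusted p = 0.265). Dntt, Satb1 and Ighm were all highest in WT replicate 1, the library with the most Flt3 RNA. The immunoglobulin light chain gene Igkc, which is in no list, was at 130 and 135 CPM in WT replicates 1 and 2 and below 1 CPM in the other 4 libraries. In the list of mature B, T and NK cell genes, 5 of 14 were tested and 1, Nkg7, was lower (-1.82, adjusted p = 0.303).

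Class I PI3K genes other than the targets were described next. Among the 9 subunits, 3 were lower and none higher at an unadjusted p under 0.05, namely Pik3cb, Pik3cd and Pik3r6, a regulatory subunit of the p110γ enzyme. Pik3r6 stood at 5.13, 4.71 and 5.98 CPM in WT and at 0.974, 1.39 and 1.20 CPM in TKO (-2.15 ± 0.72 SE, adjusted p = 0.380, DESeq2 adjusted p = 0.000382). Pik3cg, the gene of p110γ itself, and Pik3r1, the gene of the p85α regulatory subunit, overlapped between genotypes with log2 fold changes of -0.29 and -0.19.

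Downstream of PI3K, 3 of 24 genes of AKT-mTOR signalling and its phosphatases were higher and none lower, with a median of 0.13. Without WT replicate 2 the median was 0.063 with 1 higher, without TKO replicate 3 it was 0.078 with 4 higher and 1 lower, without WT replicate 1 it was 0.21, and without TKO replicate 1 there was 1 higher. Foxo4, a FoxO factor gene, stood at 11, 8.63 and 14.6 CPM in WT and at 40.9, 22.3 and 18.6 CPM in TKO (1.26, adjusted p = 0.360). The kinase gene Akt2 was higher by 0.45 on the log2 scale (adjusted p = 0.522). Akt1, Mtor and Inpp5d did not pass the unadjusted test, with log2 fold changes of 0.11, -0.12 and 0.06.

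Known FoxO targets went both ways, 3 of 21 higher and 3 lower, with a median of 0.27. The median was 0.13 without WT replicate 2, with 1 higher and 5 lower, and 0.15 without TKO replicate 2, and without WT replicate 1 there were 2 higher and 1 lower. Irs2, an adaptor of insulin and IGF receptors, stood at 55.0, 40.2 and 73.5 CPM in WT and at 156, 99.3 and 105 CPM in TKO (1.10 ± 0.28 SE, adjusted p = 0.251). The sestrin genes Sesn3 and Sesn1, whose products restrain mTOR complex 1, differed by 0.53 (adjusted p = 0.427) and 0.51 (adjusted p = 0.538). Gadd45a, a growth arrest gene, stood at 19.4, 22.3 and 32.8 CPM in WT and at 3.71, 8.74 and 9.36 CPM in TKO (-1.77 ± 0.45 SE, adjusted p = 0.251), and Cited2 differed by -0.79 (adjusted p = 0.374). For Irs2, Sesn1, Sesn3, Gadd45a and Cited2 the groups did not overlap. The FoxO core GTAAACA on either strand was present in 4 of the 17 FoxO targets with a RefSeq window (23.5%), against 3.21% of all tested genes with a window, and Sesn1 was the only one of the 4 with an unadjusted p under 0.05. Its window at chr10:41810324-41810623 on the plus strand is printed for that reason, with the motif, on the opposite strand, in capitals.
Sesn1: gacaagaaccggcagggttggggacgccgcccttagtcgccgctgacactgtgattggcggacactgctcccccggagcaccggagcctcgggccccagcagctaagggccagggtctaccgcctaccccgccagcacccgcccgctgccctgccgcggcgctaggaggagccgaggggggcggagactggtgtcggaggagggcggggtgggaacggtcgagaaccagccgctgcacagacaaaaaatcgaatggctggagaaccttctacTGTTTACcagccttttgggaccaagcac

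Cytokine receptor and JAK-STAT genes went both ways, with 5 of 25 higher, 3 lower and a median of 0.28. Without TKO replicate 1 the median was 0.10 with 3 higher, and without WT replicate 1 there were 3 higher and none lower. Socs2, a feedback inhibitor of cytokine signalling, stood at 9.67, 27.3 and 21.5 CPM in WT and at 64.3, 75.8 and 65.4 CPM in TKO (1.81 ± 0.36 SE, adjusted p = 0.187). Cish, of the same family, stood at 3.64, 11.3 and 5.90 CPM in WT and at 11.5, 35.9 and 34.7 CPM in TKO (1.97 ± 0.56 SE, adjusted p = 0.297). Pim2, a survival kinase gene, stood at 8.83, 15.2 and 20.1 CPM in WT and at 47.1, 55.2 and 37.9 CPM in TKO (1.67 ± 0.35 SE, adjusted p = 0.203). Socs2, Cish and Pim2, which STAT5 is known to induce, were higher in every TKO library and were the 3 that DESeq2 called.

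The kinase gene Jak1 was also higher (0.46, adjusted p = 0.502). The lower members were receptors. Ifngr1, a chain of the interferon gamma receptor, stood at 243, 114 and 93.7 CPM in WT and at 20.3, 84.7 and 43.9 CPM in TKO (-1.60, adjusted p = 0.344). Csf2ra and Csf3r, the receptors for GM-CSF and G-CSF that myeloid cells carry, differed by -1.16 (adjusted p = 0.365) and -1.02 (adjusted p = 0.390).

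Genes that interferon induces were higher in part. All 14 members of the guanylate-binding protein (GBP) and immunity-related GTPase (IRG) list had fold changes above 0, with a median of 0.80, and 5 were higher at an unadjusted p under 0.05 (8 without WT replicate 2, 3 without TKO replicate 2). Gbp5 stood at 15.2, 15.7 and 11.4 CPM in WT and at 52.2, 32.0 and 28.1 CPM in TKO (1.41 ± 0.34 SE, adjusted p = 0.236), and it was the member that DESeq2 called. Gbp7, Gbp3 and Igtp differed by 0.78, 0.87 and 0.88 (adjusted p = 0.360, 0.361 and 0.394). WT replicate 1 had the lowest summed level, 195 CPM, against 348 and 252 CPM in the other WT libraries and 499.9, 535 and 390.3 CPM in TKO. Members such as Gbp2, Gbp3 and Gbp5 are close paralogs, and how reads shared between them were counted was not given in the sources used here.

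Of 32 type I interferon-stimulated genes, 4 were higher and 1 lower, with a median of 0.43. The median was 0.22 without TKO replicate 2, and without WT replicate 1 it was 0.29 with 1 higher and 2 lower. Oasl2, of the oligoadenylate synthetase family, stood at 51.8, 60.2 and 67.1 CPM in WT and at 87.5, 146 and 90.6 CPM in TKO (0.85, adjusted p = 0.310). Oasl1 had the opposite sign (-2.02, adjusted p = 0.465). Both genotypes had received pIpC, which induces interferon. In the antigen presentation list 2 of 16 members were higher and none lower, with a median of 0.23, against 4 higher without WT replicate 2 and 1, with a median of 0.14, without WT replicate 1.

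In the lysosome list 8 of 46 members were lower and none higher, against 4.46% and 4.63% of all genes, with a median of -0.20. Without overlap 10 lay below and 1 above WT, against 7.24% and 7.25%, and DESeq2 called 4 lower, against 1.57%. Its summed level was 4637, 3712 and 3611 CPM in WT and 3052, 3938 and 3154 CPM in TKO, so that TKO replicate 2 lay within the WT range. Without TKO replicate 2 the median was -0.33 with 15 lower, and without WT replicate 1 it was -0.10 with 5 lower and 1 higher. Without TKO replicate 1 or 3, 5 were lower. Gla, the alpha-galactosidase gene, stood at 50.7, 53.3 and 62.2 CPM in WT and at 14.6, 24.9 and 22.9 CPM in TKO (-1.41 ± 0.28 SE, adjusted p = 0.187). Neu1, a lysosomal sialidase gene, stood at 44.4, 37.0 and 21.5 CPM in WT and at 12.1, 10.8 and 8.34 CPM in TKO (-1.72 ± 0.37 SE, adjusted p = 0.204). Both lay below WT in every TKO library. Ctsb, which encodes cathepsin B, differed by -0.90 (adjusted p = 0.252) and Igf2r, which sorts lysosomal enzymes, by -1.48 (adjusted p = 0.287). In the vacuolar proton pump list 1 of 16 was lower, near the share of all genes, with a median of -0.30, and without TKO replicate 2 this was 6 lower with a median of -0.57. Over the 17 alternatives 0 to 2 were higher and 0 to 6 lower, with medians from -0.57 to -0.24.

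The autophagy list had a median of 0.06, with 1 of 38 members higher and 1 lower at an unadjusted p under 0.05. The median was 0.15 with 3 higher without WT replicate 1, and 0.020 with 3 higher and 3 lower without TKO replicate 2. Its lower member was Atg12, of the ubiquitin-like conjugation system (-1.22, adjusted p = 0.270), and its higher member Gabarapl1, of the Atg8 family (0.56, adjusted p = 0.415).

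In the antioxidant list 5 of 28 members were lower and none higher, with a median of -0.17. Without TKO replicate 2 there were 9 lower, and without WT replicate 1 or TKO replicate 3 there were 3. Gsr, glutathione reductase, stood at 324, 186 and 188 CPM in WT and at 46.8, 119.6 and 55.8 CPM in TKO (-1.65 ± 0.37 SE, adjusted p = 0.227). G6pdx, which supplies NADPH, stood at 134, 109 and 168 CPM in WT and at 48.5, 81.4 and 47.4 CPM in TKO (-1.21 ± 0.27 SE, adjusted p = 0.227). The groups did not overlap for Gsr or G6pdx, and TKO replicate 2 was the highest TKO library for each.

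Nuclear genes of oxidative phosphorylation had a median of -0.29, with 4 of 41 lower and none higher, and the mitochondrially encoded ones a median of -0.51, with 3 of 10 lower. The mitochondrial ribosomal RNA share of counts was between 14.4% and 16.8% in WT, 15.7% in TKO replicate 2, and 8.64% and 6.88% in TKO replicates 1 and 3, and both lists were lower in TKO replicates 1 and 3 than in TKO replicate 2, with summed mitochondrially encoded levels of 6650.1 and 6595 CPM against 10629 CPM. Without TKO replicate 2 the nuclear list had 17 lower with a median of -0.50, and without WT replicate 1 or TKO replicate 3 it had 1 lower. The mitochondrially encoded list had 5 lower with a median of -0.82 without TKO replicate 2, and none lower without TKO replicate 1. The part of the ribosomal RNA share in these results was not tested. Unfolded protein and integrated stress response genes had a median of -0.31, with 4 of 26 lower and none higher, among them the chaperone gene Hspa5 (-0.71, adjusted p = 0.364), and 8 were lower without TKO replicate 2 but 1 without TKO replicate 1. In the glycolysis and hypoxia list 1 of 25 was higher and 2 were lower, near the shares of all genes. Its median of -0.13 was 0.043 without WT replicate 1. Over the 17 alternatives 0 to 3 members were higher and 1 to 5 lower. Eno1, a glycolytic enolase gene, differed by -1.24 (adjusted p = 0.233).

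**Figure D5:**
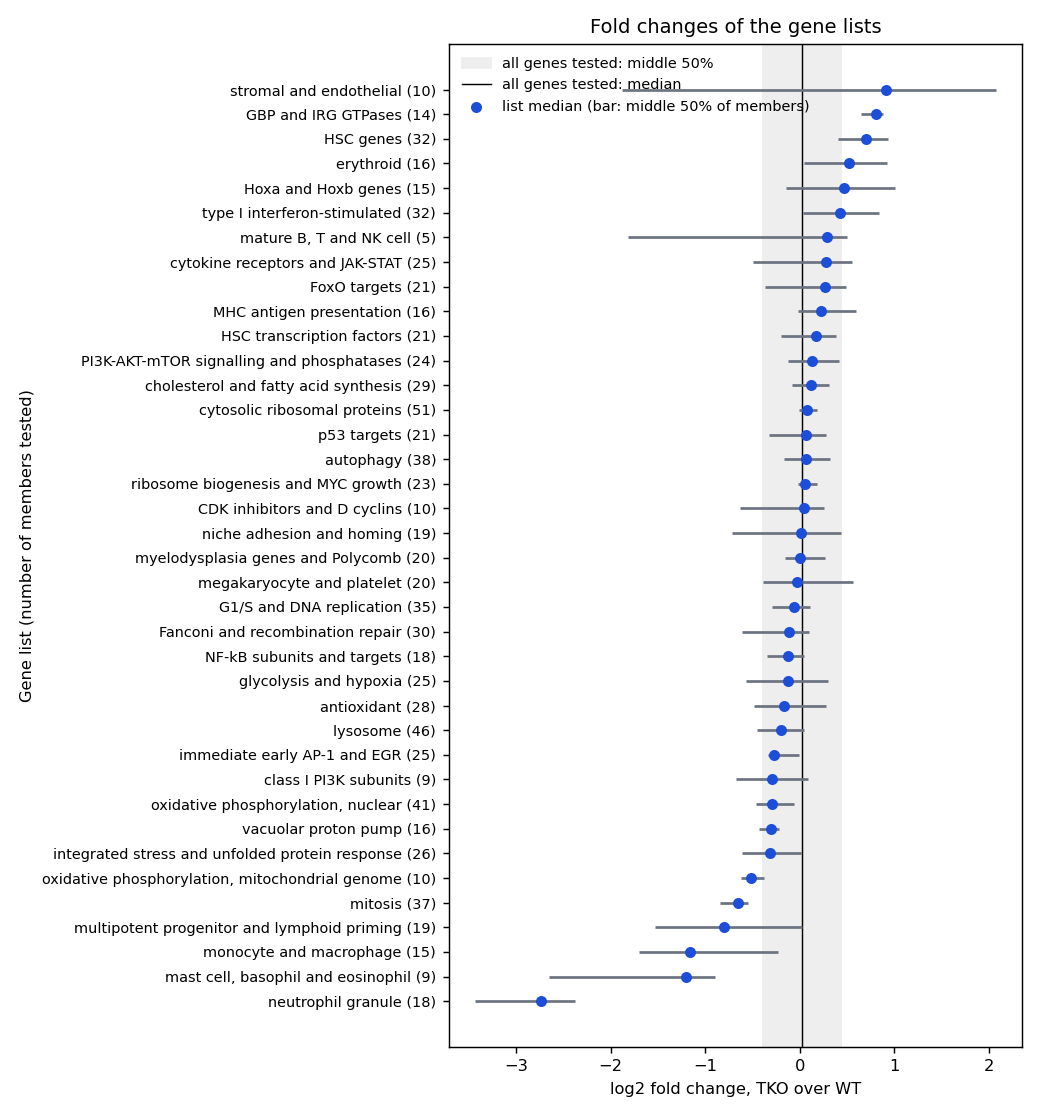
Median log2 fold change of TKO over WT (points) and the interquartile range of the members (bars) for 38 gene lists, with the number of members tested in brackets. The line and band give the median and interquartile range of all 17548 genes; neutrophil granule, mast cell, monocyte, progenitor and mitosis lists have the lowest medians, and stromal, GBP and IRG and HSC lists the highest.

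Adhesion and homing genes had a median of 0.01 over 19 members, with 1 higher and 5 lower, and leaving out 1 library moved the median between -0.13 and 0.12. Cd44, the hyaluronan receptor, stood at 271, 222 and 228 CPM in WT and at 83.7, 139 and 127 CPM in TKO (-1.04 ± 0.23 SE, adjusted p = 0.220). The integrin gene Itgal stood at 108, 40.1 and 70.6 CPM in WT and at 17.1, 31.5 and 20 CPM in TKO (-1.67 ± 0.38 SE, adjusted p = 0.233). Cxcr4, the receptor for the niche chemokine CXCL12, stood at 76.2, 70.6 and 51.0 CPM in WT and at 32.5, 44.5 and 31.8 CPM in TKO (-0.86, adjusted p = 0.324). All 3 were lower without overlap, whereas Robo4, the higher member, had a difference of 0.74 (adjusted p = 0.368).

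Growth and biosynthesis lists were near the median of all genes. None of 51 cytosolic ribosomal protein genes passed an unadjusted p under 0.05, and their median was 0.08. Without TKO replicate 2 the median was -0.28 with 5 lower. Over the 17 alternatives the median of these genes ran from -0.28 to 0.23, with 0 to 2 higher and 0 to 5 lower. Their summed level was 28707 CPM in TKO replicate 2 against 15699.6 to 20807 CPM in the other libraries. In the list of ribosome biogenesis and MYC-driven growth genes, 2 of 23 were higher and 1 lower, with a median of 0.06. Over the 17 alternatives the median of this list ran from 0.043 to 0.16, with 1 to 2 higher and 1 lower. Mycn, an HSC-expressed MYC family gene, stood at 17.9, 36.8 and 15.8 CPM in WT and at 88.1, 90.9 and 51.1 CPM in TKO (1.71 ± 0.37 SE, adjusted p = 0.220). It was the only member that DESeq2 called. Cholesterol and fatty acid synthesis genes had a median of 0.12 (0.026 without WT replicate 1), with 1 of 29 higher, the elongase gene Elovl6 (0.96, adjusted p = 0.265).

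Lists of immediate early, NF-kB, p53, and myelodysplasia and Polycomb genes were near the background in the main fit. Leaving out 1 library turned the sign of their medians. Immediate early genes had a median of -0.27 with 1 of 25 lower, and NF-kB genes -0.12 with 1 of 18 lower. Over the 17 alternatives, 0 to 3 immediate early genes were higher and 0 to 4 lower. For NF-kB genes this was 0 to 1 higher and 0 to 4 lower. Of 21 p53 targets, 1 was higher and 2 lower with a median of 0.06, and of 20 myelodysplasia and Polycomb genes, 1 was lower with a median of 0.01. The median was 0.13 for immediate early and 0.12 for NF-kB genes without WT replicate 3, -0.13 for p53 targets without TKO replicate 2 and -0.098 for myelodysplasia and Polycomb genes without TKO replicate 1. Stromal and endothelial genes had a median of 0.92 (0.51 without TKO replicate 1) over the 10 of 15 that could be tested. They were at low level, with a summed 62.3 to 89.5 CPM in WT and 48.7 to 55.2 CPM in TKO. Of the 10, 3 were higher and 1 lower, against 4.63% and 4.46% of all genes. Without overlap 4 lay above and 3 below WT, against 7.25% and 7.24%, and DESeq2 called 2 higher, against 1.39%. Their range from Alpl, at 2.33, 0.403 and 1.22 CPM in TKO and near 0 in WT, to Vcam1, at 50.9, 55.2 and 34.3 CPM in WT and 0.406, 19.7 and 14.5 CPM in TKO, showed no common direction.

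Genes near the targeted loci were counted because a called gene lay among them. Within 10 Mb of the start of Pik3cd 226 genes were tested, of which 1, Zfp990, was called, 16 were higher and 12 lower at an unadjusted p under 0.05, against 4.63% and 4.46% of all genes, and 27 were above and 22 below WT without overlap, against 7.25% and 7.24%. Zfp990 begins 4.14 Mb from Pik3cd. Of the 11 other tested genes in this window whose symbol begins with Zfp, 2 were higher and none lower, 6 were above and 2 below WT without overlap, and none was called. Both higher genes, Zfp981 and Zfp985, and the predicted gene Gm21411 between them are given, the last chosen after its values were seen. Zfp981 stood at 0, 0.0201 and 0.0252 CPM in WT and at 2.58, 0.496 and 0.339 CPM in TKO (adjusted p = 0.265), and Gm21411 at 0.0532, 0 and 0.177 CPM in WT and 6.81, 2.14 and 4.48 CPM in TKO (adjusted p = 0.233). Zfp985 stood at 0.337, 0.362 and 0.479 CPM in WT and at 2.11, 1.33 and 2.96 CPM in TKO (adjusted p = 0.496). Zinc-finger genes of this region include close copies, so that reads may have been divided among them uncertainly. Within 10 Mb of Pik3cb 4 of 213 genes were higher and 16 lower, against 4.63% and 4.46% of all genes. In that window 9 were above and 31 below WT without overlap, against 7.25% and 7.24%. Within 10 Mb of Pik3ca 5 of 92 were higher and 3 lower, close to the shares of all genes, and 10 were above and 4 below WT without overlap. Gnb4, which begins 0.18 Mb from Pik3ca and encodes a G protein beta subunit, stood at 25.6, 29.5 and 33.0 CPM in WT and at 61.3, 78.8 and 89.0 CPM in TKO (1.38 ± 0.24 SE, adjusted p = 0.139). Position near a targeted gene and loss of PI3K cannot be told apart for these genes in this design. The same holds for members of the lists above that lie in these windows, among them Eno1 near Pik3cd, Mecom near Pik3ca and Cish near Pik3cb.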

How the data were processed

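Read counts per gene were deposited for 9 libraries, of which the 3 TKO and 3 WT libraries were analysed. Per the study's methods, RNA was isolated with a PicoPure kit, amplified with the Ovation RNA-Seq System V2 and sequenced on a HiSeq2000. The series' design text gives 2 technical replicates for each library. The authors trimmed reads with Trim Galore 0.3.7, checked them with FastQC 0.11.4 and aligned and counted them with STAR 2.5.1b on mm10 (versions from the submitters' processing notes). The annotation, the strand setting and how technical replicates were joined were not given in the sources used here. The deposited values are whole raw counts for 47643 genes, 20394 of them without a count in the 6 libraries. The deposited normalized table was not used.

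Identifiers were matched without version to GENCODE M21 on mm10 (47224 matched, 419 not). Genes were kept by filterByExpr (count minimum 10, minimum total count 15), scaled by TMM and tested in R 4.3.3 with edgeR 4.0.16 (quasi-likelihood, 1 mean per genotype, residual degrees of freedom 4, biological coefficient of variation 0.655). CPM values use the TMM-scaled library sizes. DESeq2 1.42.0 and limma 3.58.1 served as alternatives, and Python 3.11.15 with matplotlib 3.10.9 drew the figures. On simulated counts with known changes, DESeq2 made more false calls than edgeR. Those counts were drawn with the means and dispersions of the edgeR fit, so they do not decide between the tools. The comparison, the gene lists, their members and the choice to fit the 6 libraries alone were made with earlier results of these data known. Named genes were the class I PI3K subunits, the sorting genes, every called gene, in each direction the 12 protein-coding genes of smallest p among those without overlap, changed more than 2-fold and at a mean of at least 5 CPM in the higher group, and at most the 4 members of smallest p in each list. Other list members, Igkc and the genes near the targeted loci were chosen after their values were seen. A few genes are not reported here, although the lists and fits include them. Libraries with the same replicate number were not treated as pairs. Intervals and p-values cover neither the sort nor the amplification as sources of error. Alternatives are given in the closing section.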

Additional observations from a re-analysis of the deposited data

How the results depend on the processing

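The 8 genes called higher and the 1 called lower remained under DESeq2 size factors and upper-quartile factors in edgeR, and with robust estimation (9 higher, 1 lower). Dropping the fold threshold kept them as well, but that change can only keep or add calls. Without a filter on low counts 28 were higher and 38 lower, and with at least 10 counts in every library 14 and 6. Of these 6, 0 were shared with the main fit, since Siglece was not tested under that filter. Fitting all 9 libraries gave 1 and 0 (306 and 456 at an unadjusted p under 0.05), and a covariate for detected genes gave 2 and 0 (726 and 1032). Limma's voom with quality weights gave 9 and 0, of which 6 were shared. DESeq2 gave 270 and 305 over all genes it tested in the 6 libraries and 68 and 57 in the 9. Leaving out 1 library gave 1 to 8 higher and 0 to 16 lower. Zfp990 was called under each of the 17 alternatives.

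Deviations of TKO and WT libraries with the same replicate number correlated at -0.00867, 0.0191 and 0.0827, so the numbers were not taken as pairs, and not every library correlated best with its own number. With the replicate number as a block, 1 gene was called higher and 0 lower (668 and 780 at an unadjusted p under 0.05 in edgeR).

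Over 178 named genes, 2824 of 3014 values kept direction and side of the threshold, 69 were no longer called, 107 became called and 14 changed sign, none of them in a called gene. With that covariate the log2 fold change was -0.082 for Pik3r3, -0.81 for Cd4, -0.085 for Rps19 and -0.010 for Rpl6, and with voom -0.19 for Cd4. Leave-one-out values changed sign for Pik3ca (-0.056 to 0.19), Pik3r3 (-0.16 to 0.79), Pik3r5 (-1.27 to 0.17), Cd4 (-0.30 to 2.18), Klrb1c (-0.074 to 2.37), Prss34 (-4.18 to 0.048) and Rps19 (-0.047 to 0.65). The scaling alternatives moved the median of all genes by less than 0.1 on the log2 scale. Of 646 list medians, 600 moved by less than the spread between libraries. The cause of the differing counts was not tested. The spread between libraries (biological coefficient of variation 0.655, 3 libraries a group) limits which differences could be called.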

Other observations

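Red cell and platelet genes were described by their own lists. Of 16 erythroid genes tested, 12 had log2 fold changes above 0 and 2 were higher at an unadjusted p under 0.05, with a median of 0.52, against 4.63% of all genes higher at that p. The median depended on single libraries: it was -0.000665 without TKO replicate 2, with 2 higher and 3 lower, 1.20 without WT replicate 2, 0.29 without WT replicate 1 and 0.80 without TKO replicate 3, and with the number of detected genes as a covariate it was 0.038, with 1 higher and 2 lower. Car2, carbonic anhydrase of early erythroid cells, stood at 144, 222 and 249.7 CPM in WT and at 356, 368 and 389.8 CPM in TKO (log2 fold change 0.85, adjusted p = 0.257). Hemgn stood at 34.6, 34.8 and 34.1 CPM in WT and at 81.7, 72.5 and 38.2 CPM in TKO (0.89, adjusted p = 0.374). Both lay above WT in every TKO library. In the megakaryocyte and platelet list 3 of 20 were higher and 1 lower, with a median of -0.03 that was 0.20 without WT replicate 2, with 4 higher, and 0.19 without WT replicate 3 or TKO replicate 3. Without WT replicate 1 there was 1 higher. Selp, which encodes P-selectin, stood at 29.1, 25.1 and 39.5 CPM in WT and at 82.7, 76.3 and 60.7 CPM in TKO (1.23, adjusted p = 0.202).

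In the Fanconi and recombination repair list 5 of 30 genes were lower and none higher, against 4.46% and 4.63% of all genes, with a median of -0.12. Without WT replicate 1 there was 1 lower (2 to 5 without any other single library). Brip1, a helicase of the Fanconi pathway, stood at 81.0, 68.6 and 77.8 CPM in WT and at 45, 23.3 and 42.8 CPM in TKO (-1.03, adjusted p = 0.270). In the list of Hoxa and Hoxb genes 1 of 15 was higher, with a median of 0.47 that was 0.053 without WT replicate 1, and Hoxa3 stood at 7.86, 10.6 and 9.54 CPM in WT and at 15.1, 27.0 and 25.5 CPM in TKO (1.27, adjusted p = 0.322).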
